A study of Mus musculus with 4 samples.

Results

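Janus kinases (JAKs) and STAT transcription factors form the relay between cytokine receptors and the nucleus. The 9 genes described here encode the 4 Janus kinases (JAK1, JAK2, JAK3 and TYK2) and 5 STAT factors (STAT3, STAT4, STAT5A, STAT5B and STAT6). They are the rows with these symbols among the 58735 gene rows of the deposited count table. Each of the 9 had at least 28 reads in every library, and all 9 were among the 15294 genes that passed the filter on low counts and were tested.

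Cytokine receptors of this class have no kinase domain of their own. A JAK bound to the inner part of each chain phosphorylates the receptor and then a STAT, which pairs with another STAT, enters the nucleus and binds DNA. In T cells, IL-2 and IL-7 act mainly through JAK1, JAK3 and the STAT5 proteins, IL-6 and IL-21 through STAT3, IL-12 through TYK2, JAK2 and STAT4, and IL-4 through STAT6. SOCS proteins, induced by STATs, shut the relay down.

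Jurkat, the human T cell leukaemia line used here, was profiled by RNA sequencing. The wild-type group held 2 libraries with no gene edited, per the labels, and the other group held 2 libraries labelled as a MATR3 knockout made with CRISPR-Cas9. The product of MATR3, matrin 3, binds RNA and sits in the nuclear matrix. The labels give the same culture conditions for all 4 libraries, add no cytokine or other agent, and do not say whether the knockout is 1 clone or a pool, or whether libraries came from separate cultures. The spread behind the p-values is that between these libraries, and it may be technical.

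Total counts were 15008554 to 17477643 per library. Reads of the tested MATR3 row numbered 19 and 9 in the wild-type libraries and 42 and 61 in those labelled knockout. An overlapping second MATR3 row had 5 and 1 wild-type reads, and 2 in each of the others. Reads that fall where both rows overlap can be lost to both, so the table does not check the knockout, and these libraries are called knockout-labelled throughout. All 12 T cell markers passed the filter, and 11 of them were lower and 0 higher in the knockout-labelled libraries, with a summed level of 3367 to 3627 CPM in wild-type, compared with 1421 to 1457 CPM in the others. Of 15 myeloid markers, 13 were higher, 7 of them from under 10 reads in both wild-type libraries, and 1, CTSG, was lower. Their summed level was 428 to 447 CPM in the wild-type libraries and 5775 to 5882 CPM in the knockout-labelled libraries. Most of each sum came from 1 gene. CTSG stood at 408 and 393 CPM in wild-type, against 89.8 and 94.8 CPM in the others. MPO stood at 8.50 and 9.36 CPM in wild-type, against 4972 and 4867 CPM in the others. CD14 was too low to test. Mitochondrial genes took 4.92% to 5.31% of reads in wild-type, against 9.33% to 9.49% in the others. These shifts move with every difference given below, and their part in any of them was not tested.

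By edgeR's quasi-likelihood test, 6 of the 9 genes changed, against 66.0% of all genes tested. STAT5A, STAT5B, STAT3 and JAK3 fell, while STAT4 and JAK2 rose. STAT6, TYK2 and JAK1 did not pass the test. The 4 falls stand beside 32.3% of all genes called lower, and the 2 rises beside 33.7% called higher, so the number of changed genes in the family was close to that of the transcriptome. At least 2-fold changes were found for STAT5A alone among the falls (10.7% of all genes) and for STAT4 alone among the rises (15.6% of all genes). The groups did not overlap for 7 of the 9 genes, against 82.0% of all genes. The median log2 fold change of the 9 genes was -0.06, beside 0.02 over all genes tested. RNA of a whole culture was measured, so fewer cells with a transcript and less of it per cell cannot be told apart.

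**Figure D1:**
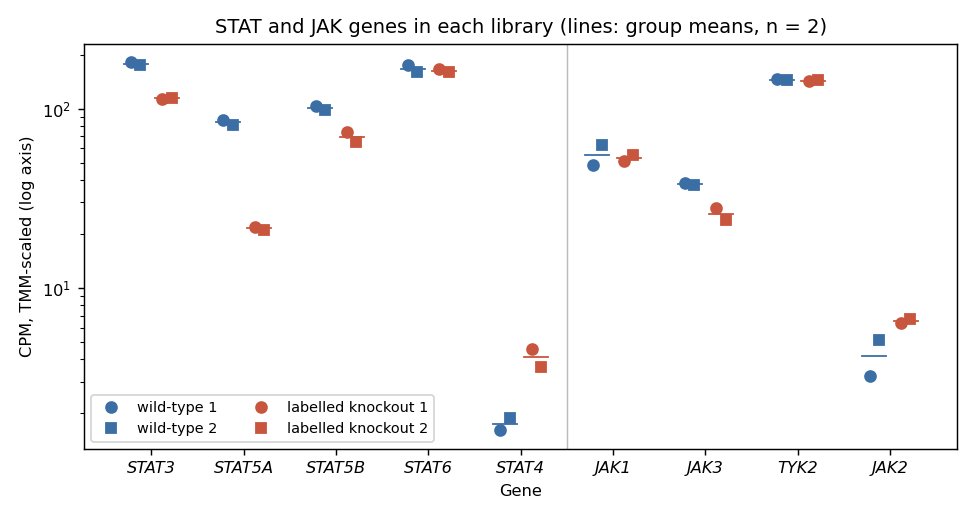
Level of each gene in each library in CPM scaled by TMM factors, on a log axis, with blue for wild-type and red for knockout-labelled libraries; short lines are group means of 2 libraries. STAT5A shows the widest gap, from 87.0 and 81.3 CPM to 21.97 and 21.10 CPM, while the points of STAT6, TYK2 and JAK1 lie close together.

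STAT5A showed the largest change of the family. STAT5A is activated by IL-2, IL-7, GM-CSF and prolactin receptors and carries much of the survival signal of lymphocytes (ENSG00000126561, chromosome 17, 42287547 to 42311943, from the deposited table, whose build is not stated). Its reads numbered 1515 and 1294 in wild-type, against 322 and 313 in the knockout-labelled libraries. This is 87.0 and 81.3 CPM (reads scaled to library size) in wild-type, compared with 21.97 and 21.10 CPM in the knockout-labelled libraries, so both of the latter lay far below both wild-type libraries. The means were 84.1 ± 4.03 and 21.5 ± 0.610 CPM (SD, n = 2 each). STAT5A thus fell by 1.97 on the log2 scale (SE 0.0986, adjusted p = 4.34e-30, edgeR), which left 25.6% of the wild-type level. Only 1.95% of all tested genes had a lower log2 fold change.

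STAT5B, the near relative of STAT5A with largely shared targets, fell less (ENSG00000173757, chromosome 17, 42199168 to 42276707). It stood at 103.4 and 98.2 CPM in wild-type and at 73.8 and 65.1 CPM in the knockout-labelled libraries, again without overlap. Its log2 fold change was -0.54 (95% interval -0.70 to -0.38, adjusted p = 1.85e-08, edgeR). The intervals of the STAT5A and STAT5B changes did not meet. Per kilobase of gene length, STAT5A had 0.943 and 0.928 of the STAT5B level in the wild-type libraries and 0.333 and 0.363 in the knockout-labelled libraries. On the log2 scale this ratio differed by -1.43 between the groups. An exact permutation test of it gave p = 0.333 (two-sided), the smallest p that 2 against 2 libraries allow.

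STAT3, the main factor downstream of gp130 receptors and of IL-21 and IL-23, also fell (ENSG00000168610, chromosome 17, 42313324 to 42388568). Its level was 181 and 174 CPM in the wild-type libraries and 113 and 115 CPM in the knockout-labelled libraries. The replicates of each group were close, and the lower group kept 64.3% of the wild-type mean. This is a log2 fold change of -0.64 (SE 0.0733, adjusted p = 3.40e-12, edgeR). STAT3 and STAT5B moved by similar amounts: the log2 ratio of STAT3 to STAT5B differed by -0.10 between the groups (exact permutation p = 0.667, two-sided), and by 0.0022 without knockout-labelled replicate 1.

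STAT4, the factor of IL-12 and type I interferon receptors that drives Th1 responses, rose from a low level (ENSG00000138378, chromosome 2, 191029576 to 191151596). It had 28 and 30 reads in wild-type, against 67 and 54 in the knockout-labelled libraries. These reads correspond to 1.61 and 1.88 CPM in wild-type and to 4.57 and 3.64 CPM in the others, so the groups did not overlap. STAT4 thus rose by 1.23 on the log2 scale (SE 0.309, adjusted p = 0.000341, edgeR). The ratio of pooled reads was 2.36, with an exact conditional 95% interval of 1.71 to 3.28, which covers counting error only. Per kilobase, STAT4 stood above 12.1% of tested protein-coding genes in wild-type and above 17.8% in the knockout-labelled libraries.

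STAT6, which carries the IL-4 and IL-13 signal, was the most abundant of the 9 genes per kilobase and did not pass the test (ENSG00000166888, chromosome 12, 57095408 to 57132139). It stood at 175 and 159 CPM in wild-type and at 166 and 159 CPM in the knockout-labelled libraries, and the groups overlapped. The log2 fold change was -0.04 (95% interval -0.19 to 0.10, adjusted p = 0.630, edgeR). One wild-type library decided the sign and the call: the value was 0.05 without wild-type replicate 1 (adjusted p = 0.434) and -0.12 without wild-type replicate 2 (adjusted p = 0.0410).

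Among the kinases, JAK3 fell. JAK3 binds only the common gamma chain of the receptors for IL-2, IL-4, IL-7, IL-9, IL-15 and IL-21 (ENSG00000105639, chromosome 19, 17824780 to 17848071). Its level was 38.5 and 37.7 CPM in wild-type, compared with 27.8 and 23.9 CPM in the knockout-labelled libraries, with no overlap. JAK3 had a log2 fold change of -0.56 (SE 0.119, adjusted p = 2.76e-05, edgeR), a size like those of STAT3 and STAT5B.

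JAK2, the kinase of the erythropoietin, thrombopoietin, GM-CSF and interferon gamma receptors, was the rarest kinase and was higher in the knockout-labelled libraries (ENSG00000096968, chromosome 9, 4984390 to 5128183). It had 56 and 82 reads in the wild-type libraries and 93 and 99 in the others. In CPM this was 3.21 and 5.15 against 6.34 and 6.68, and the gap between the wild-type libraries was wider than the gap between the nearest libraries of the groups. JAK2 had a log2 fold change of 0.65 (SE 0.235, adjusted p = 0.0128, edgeR). The call was lost without wild-type replicate 1 (log2 fold change 0.36, adjusted p = 0.205), without knockout-labelled replicate 1 (adjusted p = 0.0589) and without knockout-labelled replicate 2 (adjusted p = 0.0983). Without wild-type replicate 2 the value was 1.00. It was also lost with DESeq2's Wald test (adjusted p = 0.0898) and without a composition factor (adjusted p = 0.0568), and adjusted p-values over all alternatives ran from 0.0022 to 0.205.

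JAK1, which serves gamma chain, gp130 and interferon receptors alike, did not pass the test (ENSG00000162434, chromosome 1, 64833229 to 64966504). Its levels of 48.4 and 62.3 CPM in wild-type enclosed those of 50.9 and 55.0 CPM in the knockout-labelled libraries. The log2 fold change was -0.06 (95% interval -0.25 to 0.13, adjusted p = 0.580, edgeR). It became -0.22 without wild-type replicate 1, where it passed the test (adjusted p = 0.0263), and 0.11 without wild-type replicate 2 (adjusted p = 0.259).

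TYK2, the partner kinase of type I interferon, IL-12 and IL-10 receptors, was the most abundant kinase (ENSG00000105397, chromosome 19, 10350529 to 10380676). Its 4 values lay between 143.0 and 146.0 CPM, the narrowest range of the 9 genes relative to level. The log2 fold change was -0.02 (95% interval -0.16 to 0.13, adjusted p = 0.858, edgeR). As a fold, this interval runs from 0.894 to 1.09 of the wild-type level.

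**Figure D2:**
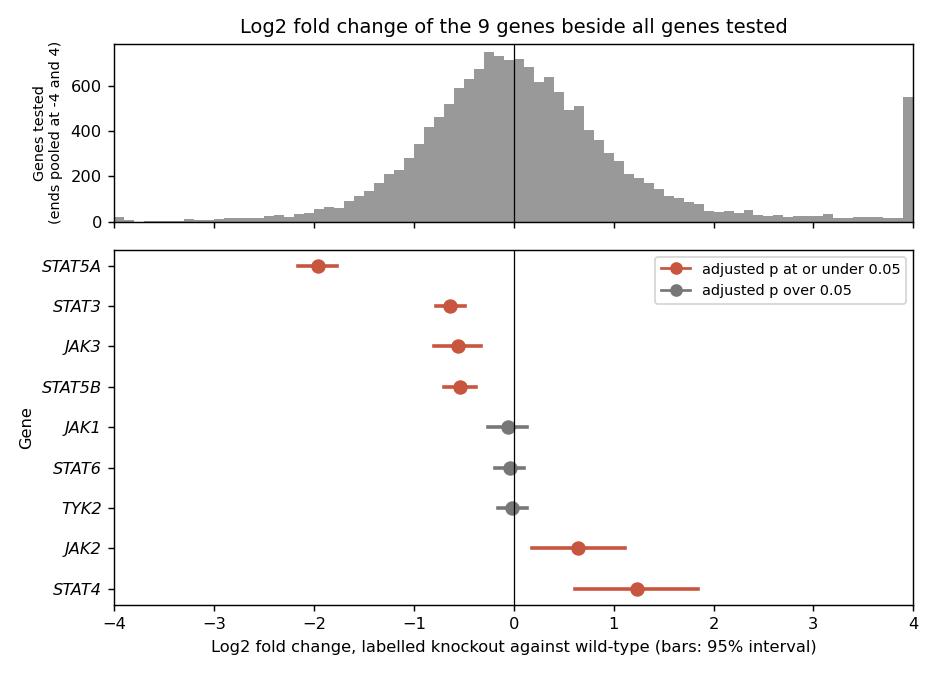
Log2 fold change, labelled knockout against wild-type, for all 15294 tested genes as a histogram (top, values beyond -4 or 4 counted in the end bins) and for the 9 genes with 95% intervals (bottom). STAT5A at -1.97 stands far to the left of the other 8, whose points run from -0.64 to 1.23.

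Levels of different genes were compared per kilobase of the deposited gene length (CPM per kb). In wild-type the order was STAT6 (22.9 CPM per kb), TYK2 (21.4), STAT3 (20.2), STAT5B (15.6), STAT5A (14.6), JAK1 (8.76), JAK3 (5.59), JAK2 (0.678) and STAT4 (0.365). No neighbours in this order had overlapping ranges over the 2 libraries, though STAT6 and TYK2, TYK2 and STAT3, and STAT5B and STAT5A differed by only 1.06-fold to 1.07-fold. The knockout-labelled libraries had the same order but for STAT5A, which went from the fifth place to the seventh. At 3.74 ± 0.106 CPM per kb (SD, n = 2) it there overlapped JAK3 at 3.79 ± 0.404 CPM per kb, the only neighbours in either group whose ranges overlapped.

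The make-up of the STAT transcripts shifted with these changes. Summed over the 5 STAT genes, the level was 76.1 and 71.3 CPM per kb in wild-type, against 51.9 and 49.4 CPM per kb in the knockout-labelled libraries. STAT5A made up 19.9% and 19.8% of that sum in wild-type, compared with 7.36% and 7.43% in the others. STAT6, which did not pass the test, made up 31.6% and 30.6% in the wild-type libraries and 43.9% and 44.1% in the knockout-labelled libraries. The share of STAT3 was 27.0% and 27.7% in wild-type, against 24.8% and 26.4% in the others. Such shares depend on each other, since they add up to the whole.

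Kinase transcripts showed no like shift in their sum, which was 35.4 and 37.5 CPM per kb in wild-type, compared with 34.3 and 34.5 CPM per kb in the knockout-labelled libraries. TYK2 held 56.7% to 61.6% of it in all 4 libraries. JAK2 held 1.47% and 2.23% in the wild-type libraries and 3.0% and 3.13% in the others. JAK3 held 16.0% and 14.8% in wild-type, against 11.9% and 10.1% in the knockout-labelled libraries. Set against JAK1 within each library, the log2 ratio differed between the groups by 0.73 for JAK2, -0.51 for JAK3 and 0.04 for TYK2. Exact permutation p-values of these 3 ratios were 0.333, 0.333 and 1 (two-sided; adjusted over the 5 ratios tested in all, each was at least 0.556). The TYK2 ratio changed sign without wild-type replicate 2 (-0.15) or knockout-labelled replicate 1 (-0.01).

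**Figure D3:**
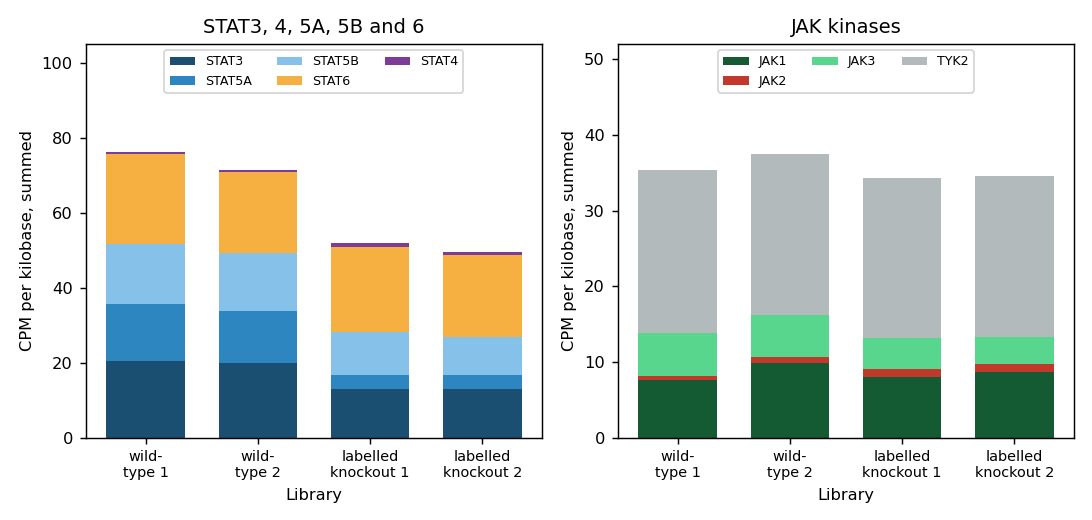
Stacked levels in CPM per kilobase of the 5 STAT genes (left) and the 4 kinases (right) in each library, with bars starting at 0. The STAT bars are shorter in the knockout-labelled libraries (51.9 and 49.4 against 76.1 and 71.3), mostly through STAT5A, STAT3 and STAT5B, while the kinase bars reach 34.3 to 37.5 in all 4.

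The 3 STAT genes that fell lie side by side on chromosome 17. STAT5B and STAT5A point away from each other with 10.8 kb between them, STAT5A and STAT3 run towards each other with 1.38 kb between their ends, and the trio spans 189.4 kb. The nearest tested protein-coding genes outside it were GHDC, at a log2 fold change of -0.10 (adjusted p = 0.490, edgeR), and ATP6V0A1, at 0.15 (adjusted p = 0.106). Neither passed the test. Further out, NAGLU, a lysosomal enzyme gene, was higher at 0.80, and the potassium channel gene KCNH4 was lower at -1.60. A window of 500 kb to either side of the STAT5A start was also taken, a width chosen after the values were seen. Of the 31 other tested protein-coding genes in it, 15 were lower, 4 were higher and 12 did not pass the test. Their median log2 fold change was -0.22, beside 0.02 over all genes tested. Of all genes tested, 32.3% were called lower and 33.7% higher. STAT5A had the lowest value of the 34 genes in the window, ahead of NT5C3B at -1.77.

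**Figure D4:**
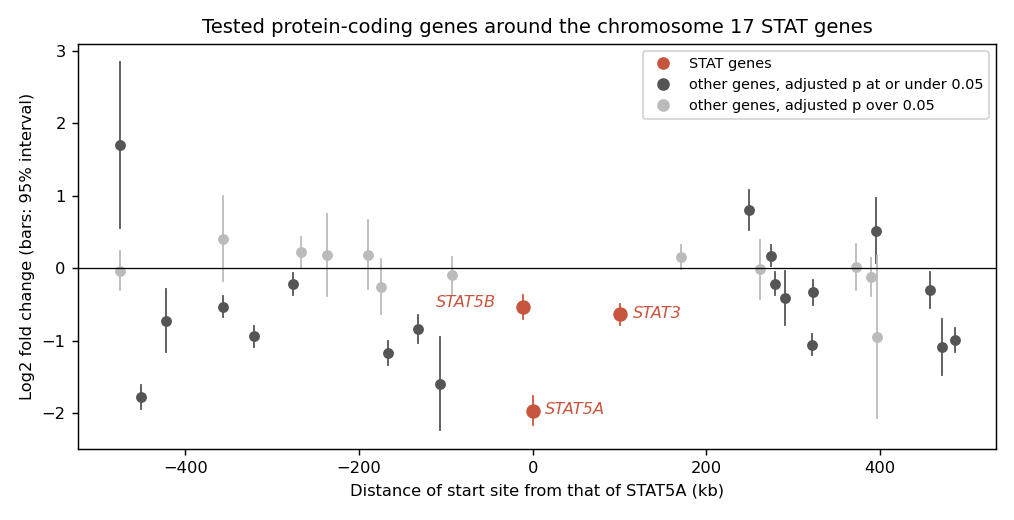
Log2 fold change with 95% interval for the 34 tested protein-coding genes whose start lies within 500 kb of that of STAT5A, by distance in kb. STAT5B (-0.54), STAT5A (-1.97) and STAT3 (-0.64) are all below 0, and the genes next to the trio, GHDC (-0.10) and ATP6V0A1 (0.15), lie close to it.

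Neighbours of the other members were examined in the same way. Their counts stand beside 33.7% of all tested genes called higher and 32.3% called lower. Of the 6 nearest tested protein-coding genes of STAT4, 5 were higher and 1 lower, with a median of 0.83. JAK1 and JAK3 each had 2 neighbours higher, 2 lower and 2 that did not pass the test, with medians of -0.07 and -0.06. STAT6, which did not pass the test itself, had 4 neighbours higher and 2 lower, with a median of 0.66. The 6 neighbours of JAK2 numbered 0 higher, 2 lower and 4 that did not pass the test, with a median of -0.39. CD274 (PD-L1), 1 of these 6, was at 1.85 ± 0.584 CPM in wild-type, compared with 1.15 ± 0.489 CPM in the others (adjusted p = 0.165, edgeR). TYK2 had 5 of 6 neighbours lower and 1 higher, with a median of -0.60. STAT6 shares 3647 bases with LRP1 and 69 bases with NAB2 on the opposite strand. LRP1 rose from 34.8 ± 3.90 to 48.4 ± 7.07 CPM, and NAB2, an EGR corepressor, rose from 35.1 ± 0.834 to 82.3 ± 1.67 CPM (SD, n = 2 each). The strand setting of the counting is not given, so reads of the shared bases cannot be assigned. JAK1 shares 4 bases with RAVER2, and rows overlapping STAT4, STAT5B and JAK2 held at most 1.68% as many reads as the gene itself. No row overlapped STAT3, STAT5A, JAK3 or TYK2.

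The genes around the relay were taken as 12 lists of 122 symbols, chosen with earlier results of these data known. Of these, 85 genes were tested, 43 were higher, 24 lower and 18 did not pass the test, so 78.8% were called, against 66.0% of all genes tested (33.7% higher, 32.3% lower). For 15 of the 85, both libraries of 1 group had under 10 reads. Such genes passed the filter on low counts only through the group where they were high, which favours a difference. Of these 15, 10 were called higher and 3 lower, and the rest did not pass the test. All 15 are left out of the list counts and medians below. The other 70 numbered 33 higher, 21 lower and 16 not passing the test, which is 77.1% called, beside 64.3% of all genes when those low in 1 group are left out in the same way. Among ligands, 7 of 30 were tested and 4 counted, of which 2 were higher and 0 lower (median 0.76, beside -0.02 over all genes counted in this way). OSM, oncostatin M, a gp130 cytokine and a known STAT5 target, rose from 2.58 and 1.76 CPM in wild-type to 16.8 and 21.3 CPM. IL2, IL4, IL6, IL7, IL21 and IFNG were among the 23 ligands with too few reads to test.

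Receptors of the gamma chain family signal mainly through JAK1 and JAK3. Of the 6 genes counted in this list, 3 were lower, 1 higher and 2 did not pass the test (median -0.53). IL2RG, the common gamma chain and docking site of JAK3, fell from 83.2 and 73.2 CPM to 44.1 and 47.7 CPM. IL2RB, the beta chain that recruits STAT5, fell from 21.53 and 22.05 CPM to 9.89 and 8.63 CPM (log2 fold change -1.23). IL9R fell by 1.498 on the log2 scale. It has near-identical copies in the genome, so its reads are uncertain. IL15RA was higher at 0.46 (adjusted p = 0.0446, edgeR), a call lost in 7 of 12 alternatives. These include leaving out wild-type replicate 1 (adjusted p = 0.159), either knockout-labelled library (adjusted p = 0.345 and 0.0746 for replicates 1 and 2), and the replicate block (adjusted p = 0.0504).

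Receptors of the IL-6 and IL-12 families, which use STAT3 and STAT4, had 9 tested genes, of which 5 were low in 1 group. Of the 4 counted, 3 were higher and 1 lower (median 0.78). IL23R, which pairs with JAK2 and is 1 of the 5, had 0 and 1 reads in the wild-type libraries and 250 and 252 in the knockout-labelled libraries. The ratio of pooled reads was 568, with an exact conditional 95% interval of 101 to 22462. This interval covers counting error only, and the filter favoured a difference for this gene. IL27RA rose from 17.39 and 20.04 CPM to 43.4 and 45.4 CPM, and IL11RA rose by 0.91 on the log2 scale. The chains of the IL-12 receptor, also among the 5 and chosen after their values were seen, parted: IL12RB2 had 5 and 0 reads in wild-type, against 107 and 94 in the others, whereas IL12RB1, the TYK2-binding chain, had 45 and 27 reads in wild-type, compared with 3 and 1 in the others.

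Interferon and IL-10 family receptors divided evenly, with 2 higher, 2 lower and 4 not passing the test (median 0.20). IFNGR1, the chain that binds JAK1, rose from 12.6 and 13.1 CPM to 25.3 and 25.1 CPM. IFNGR2, its JAK2-binding partner, rose by 0.54 on the log2 scale, and IFNLR1, a chain of the interferon lambda receptor, fell by 0.89. Of 6 tested haematopoietic and hormone receptors, CSF3R, CSF2RB and CSF2RA passed the filter only through the knockout-labelled libraries. The 3 others, named after their values were seen, were IL3RA and LEPR, which were higher, and EPOR, which did not pass the test (log2 fold change 0.25). CSF3R, the G-CSF receptor, had 0 reads in both wild-type libraries and 322 and 329 in the others, at least 245-fold higher if the wild-type group is set to a floor of 3 counts in all. CSF2RB, the chain shared by the GM-CSF, IL-3 and IL-5 receptors that binds JAK2, had 3 and 1 reads in the wild-type libraries and 157 and 144 in the others. CSF3R is itself 1 of the myeloid markers that were higher in these libraries.

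**Figure D5:**
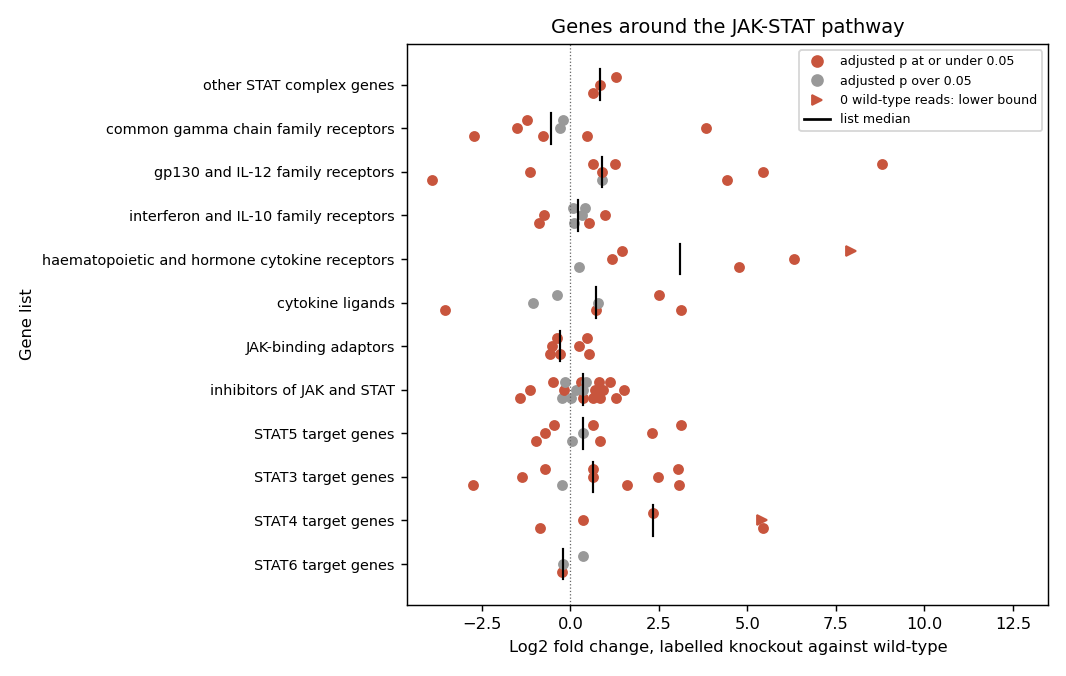
Log2 fold change of the tested genes in the 12 lists around the pathway, with red points past the test, grey points not past it, triangles for genes with 0 wild-type reads placed at their lower bound, and a black line at each median. Adaptors lie within 0.58 of 0, while several receptors lie far to the right. Points and medians here include the 15 genes that passed the filter through 1 group only, whose position the filter fixed in part.

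STAT2, a factor of type I interferon responses, rose from 44.8 and 44.3 CPM to 74.7 and 64.8 CPM, in the same libraries in which STAT3, STAT5A and STAT5B fell. IRF9, which binds DNA together with STAT2, also rose. It was named after its values were seen and had 19 and 18 reads in wild-type, against 45 and 36 in the others. Adaptors that bind JAKs or receptors split into 3 higher and 4 lower of 7, all within 0.58 of 0 on the log2 scale. STAM fell by 0.58 and SH2B1, an adaptor of JAK2, by 0.51, while SHC1 rose by 0.48. STAM2 was at 0.52, a call lost without wild-type replicate 1 (0.33, adjusted p = 0.124), and without knockout-labelled replicate 1 or 2 (adjusted p = 0.0642 for each).

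Of 20 inhibitors of the relay, 10 were higher, 4 lower and 6 did not pass the test (median 0.36). CBL, a ubiquitin ligase, rose from 93.2 and 94.0 CPM to 263.6 and 267.1 CPM. SOCS4 and SOCS5 rose by 1.11 and 1.28 on the log2 scale, while USP18, an inhibitor of type I interferon receptor signalling, fell by 1.13. SOCS1 and SOCS7 were lower too, at log2 fold changes of -1.41 and -0.18. SOCS1 had 55 and 45 reads in the wild-type libraries and 14 and 19 in the knockout-labelled libraries. SOCS3 and CISH, the feedback genes most closely tied to STAT3 and STAT5, did not pass the test (log2 fold changes -0.23 and 0.36). SOCS1, SOCS7, SOCS3 and CISH were chosen for naming after their values were seen.

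The lists of STAT5 and STAT3 targets, which share MYC and PIM1, each held genes that were higher and genes that were lower. Their counts stand beside 33.7% of all tested genes called higher and 32.3% called lower. Of 9 tested STAT5 targets, 4 were higher, 3 lower and 2 did not pass the test (median 0.36). CCND2, cyclin D2, rose from 8.44 and 9.30 CPM to 44.5 and 43.2 CPM, and SOCS2 rose by 0.83 on the log2 scale. BCL2L1, which encodes the survival protein BCL-xL, fell from 76.3 and 70.0 CPM to 39.9 and 35.3 CPM. Of 10 STAT3 targets, 6 were higher and 3 lower (median 0.64). The rises were led by MCL1 at 3.07 and BCL3 at 3.04, and JUNB rose from 48.6 and 56.2 CPM to 157.5 and 159.3 CPM. Many other factors control these genes too.

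The STAT4 targets tested numbered 5, of which 3 passed the filter only through the knockout-labelled libraries. Of the 2 others, 1 was higher and 1 lower. Only FURIN, a proprotein convertase, averaged above 5 CPM, and it rose by 0.35. IFNG, the best known target, was too low to test. STAT6 targets had 3 tested genes, of which 0 were higher and 1 was lower. GATA3, the Th2 factor, stood at 75.3 and 74.1 CPM in wild-type, against 65.8 and 61.7 CPM in the others (log2 fold change -0.23, adjusted p = 0.0132, edgeR). Its call was lost without knockout-labelled replicate 1 (adjusted p = 0.0818), without knockout-labelled replicate 2 (adjusted p = 0.270), with DESeq2's Wald test (adjusted p = 0.0645) and with no expression filter (adjusted p = 0.0558).

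Genes whose pattern over the 4 libraries was most like that of STAT5A were sought among 10225 other tested protein-coding genes averaging at least 5 CPM. Likeness was the distance between mean-centred log2 CPM values. The nearest were FBLN2, an extracellular matrix protein gene (distance 0.04), TNFRSF8, which encodes CD30 (0.06), and POLR2L, an RNA polymerase subunit gene (0.06). Their log2 fold changes were -1.95, -2.02 and -1.97. For STAT4 the nearest were DNHD1 (0.01), RBM26 (0.07) and FBXO11 (0.08), with log2 fold changes of 1.25, 1.24 and 1.18. With 4 libraries in 2 groups, this measure mainly finds genes with the same fold change.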

How the data were processed

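The authors deposited 1 table of raw read counts per gene for 4 libraries, without normalization, with symbols, coordinates and gene lengths, per the file headers. Per the submitters' processing notes, the tools were CASAVA 1.8, HISAT2 2.0.5 and featureCounts 1.5.0-p3. The notes give no role for each, with build and strand setting not given in the sources used here. Mouse is the labelled organism, but the identifiers and the cell line are human. No human sequence was used here. Columns were assigned by the short name in each sample's description.

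Counts were scaled by TMM factors and tested with edgeR 4.0.16 under R 4.3.3 (default filter, at least 10 counts and 15 in total, quasi-likelihood test, two-sided, no covariate), with p-values adjusted by Benjamini-Hochberg over 15294 genes and called at 0.05. The standard error is the log2 fold change over the square root of F. The common biological coefficient of variation was 0.0667. Replicates differed by more than sampling noise (mean chi-square of 5.83 per gene in wild-type and 2.21 in the others), so each was counted once. Intervals of pooled reads are exact conditional 95% intervals, which cover counting error only. Counts simulated from the wild-type means (15120 genes, 200 changed) were tested first. This recovered 78.7% of 2-fold changes and 97.8% of 4-fold changes, with 6.90% of calls false. A far smaller share of genes changed there than the 66.0% called here, so these rates need not hold for these data.

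The members, lists and tests were chosen with earlier results of these data known. Each list names up to 4 genes, those with the largest changes among called genes without overlap that averaged at least 5 CPM. Alternatives were 3 other scalings, DESeq2 1.42.0, limma voom 3.58.1, 2 other filters, an adjusted p of 0.01, a replicate block and leaving out each library. Marker lists of 5 other cell types were also measured. Of the tested genes, B cell markers were higher for 2 (both with under 10 reads in each wild-type library) and lower for 1 of 3, natural killer cell markers higher for 2 and lower for 1 (under 10 reads in each knockout-labelled library) of 3, epithelial markers higher for 3 of 4, erythroid and megakaryocyte markers changed for 0 of 3, and fibroblast markers lower for 1 of 2.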

Additional observations from a re-analysis of the deposited data

How the results depend on the processing

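The falls of STAT5A (log2 fold changes -2.03 to -1.90), STAT3 (-0.69 to -0.59), STAT5B (-0.63 to -0.45) and JAK3 (-0.68 to -0.45) and the rise of STAT4 (1.06 to 1.39) kept their direction and passed the test in all 12 alternatives run for each. The number of members called higher was 1 in place of 2 without a composition factor, with DESeq2's Wald test and at an adjusted p of 0.01, and 1 to 2 with a library left out, where the number called lower was 4 to 5. JAK2, with 56 to 99 reads per library, was at 0.59 without a composition factor and at 0.65 with the DESeq2 Wald test, and ran from 0.36 to 1.00 with a library left out. For the genes that did not pass the test, values with a library left out ran from -0.12 to 0.050 (STAT6), -0.22 to 0.11 (JAK1) and -0.041 to 0.014 (TYK2), and TYK2 was at 0.021 with upper-quartile scaling. The difference of the STAT3 to STAT5B ratio ran from -0.20 to 0.0022 and that of TYK2 to JAK1 from -0.15 to 0.23. The cause of these changes was not tested. All genes called numbered 8018 to 10263, and no scaling moved the median of all genes by more than 0.05. Replicate numbers did not pair the samples (correlation of deviations 0.02 between the replicates numbered 1), and the replicate block called 10072 genes, with 2 members higher and 4 lower. With 2 libraries a group, a lone library is assumed to vary like the other group.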
